A study of Mus musculus with 3 samples.

Results

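Cytosolic ribosomal protein genes encode the protein subunits of the ribosome that translates nuclear mRNAs. They were taken here as the probe sets whose platform annotation gives exactly 1 gene symbol, with that symbol being Rpl or Rps and a number (with or without a final a, x or l), Rplp0 to Rplp2 or Rpsa. This rule uses names and no measured value. It found 100 probe sets of 46 genes, among 34945 probe sets of 18193 genes that have exactly 1 symbol. The arrays held RNA from NIH3T3, a mouse fibroblast line that was derived from embryos and grows without limit. 2 arrays came from cells with the empty vector (empty vector 1 and empty vector 2), grown in calf serum medium with no treatment and labelled as basal expression. 1 array came from cells whose retinol saturase gene (Retsat) was targeted by a short hairpin RNA (shRNA), labelled as highly resistant to t-BHP, an organic peroxide. The title of the series describes an RNA interference search for cells that withstand oxidative stress better. The comparison asks which transcripts differ in the resistant cells. The labels give no treatment for the RetSat shRNA cells and do not say whether they are 1 clone, or what the number 2 in the title of that sample stands for. Separate cultures are not stated for the controls, so the spread behind each p-value may be technical.

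A ribosome holds 1 copy of nearly every one of these proteins, arranged on the ribosomal RNA of a small subunit, which decodes the mRNA, and a large subunit, which joins the amino acids. The genes are transcribed at very high levels in growing cells. Their mRNAs begin with a terminal oligopyrimidine tract, a run of C and U at the very 5′ end through which mTOR and the protein LARP1 control their translation. A change in that control alters ribosome loading more than mRNA level, and only mRNA level was measured here.

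Start-site sequences are shown because the tract is the feature that these genes are best known to share and that the naming rule did not use. They come from RefSeq promoters of mouse build GRCm38.p6, of which only part was kept, and 40 of the 46 genes had an entry among those kept. A gene without a window here may therefore still have a promoter entry that was left out. Each window runs from 15 bases before the annotated start to 15 bases of transcript, 30 bases in all, and capitals mark a run of at least 5 pyrimidines that begins within 5 bases of the start. The first group below holds long runs, the second holds both members of 2 paralog pairs, and the last 2 windows, of Rps28 and Rpl4, hold no such run.
Rps6, chr4:86857353-86857382, minus strand: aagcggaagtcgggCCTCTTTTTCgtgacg
Rps18, chr17:33955651-33955680, minus strand: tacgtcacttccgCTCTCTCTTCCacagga
Rpl38, chr11:114668565-114668594, plus strand: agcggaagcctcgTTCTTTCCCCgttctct
Rplp2, chr7:141447636-141447665, plus strand: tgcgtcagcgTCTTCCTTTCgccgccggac
Rpl27a, chr7:109519180-109519209, plus strand: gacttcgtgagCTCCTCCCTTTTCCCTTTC
Rps27, chr3:90213634-90213663, minus strand: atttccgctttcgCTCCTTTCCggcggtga
Rps27l, chr9:66946071-66946100, plus strand: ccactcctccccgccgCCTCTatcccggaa
Rpl39, chrX:37085208-37085237, minus strand: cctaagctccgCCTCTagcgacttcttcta
Rpl39l, chr16:10170213-10170242, plus strand: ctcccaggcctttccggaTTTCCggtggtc
Rps28, chr17:33824548-33824577, minus strand: ggtaccgcgtgcggtctcgcgagagcgaaa
Rpl4, chr9:64173372-64173401, plus strand: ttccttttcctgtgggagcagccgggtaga
The run was found in 16 of the 40 genes (40%), compared with 25.3% of the 27025 genes kept from the promoter table, taking the longest run where a gene has several starts. A run of at least 8 pyrimidines, a cutoff that was not planned, was found in 10 of the 40 genes (25%), against 5.69% of all genes. The shares were 2.90% of mitochondrial ribosomal protein genes and 4.71% of ribosome assembly genes. Rpl7a, Rpl14, Rpl35 and Rps9 have pyrimidine runs that begin further upstream and cross the start, so the rule misses them. It also misses the run in the Rpl4 window, which begins upstream and ends 5 bases before the start. With every run counted that touches the 5 bases on either side of the start, the share was 25 of 40 (62.5%) against 36.7%. This wider count was not planned either. The motif CCGGAAG, searched in the 300 bases of each promoter on both strands after the windows had been seen, was present in 20 of the 40 genes (50%) and in 9.93% of all genes, 37.7% of mitochondrial ribosomal protein genes and 42.4% of ribosome assembly genes. These matches describe the letters in the windows and are not sites. Of the 38 genes whose promoter entry was kept and that were tested on the arrays, the 16 with the run of at least 5 had a median log2 difference of 0.17 between RetSat shRNA and the empty vector, and the 22 without it had 0.15.

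The 3 arrays carry 45101 probe sets each, and deposited signals ran from 0.1 to 30189.8. The target mRNA was reduced on the RetSat shRNA array: the brighter Retsat probe set read 416 on empty vector 1, 496 on empty vector 2 and 69.5 on RetSat shRNA. All 12 fibroblast markers passed the filter on dim signal, between 811 and 19516, and their summed signal ran from 90969 on empty vector 1 through 94087 on empty vector 2 to 95524 on RetSat shRNA. Of the 28 markers of epithelial, leukocyte, endothelial, muscle, neuronal and fat cells on the array, 8 passed. The brightest was Fabp4, at up to 487, and the others were at 142 or below. Over the 10843 genes tested, log2 signals of empty vector 1 and empty vector 2 differed with an SD of 0.739, and those of RetSat shRNA and empty vector 2 with an SD of 0.336, so empty vector 1 stood apart and results are given against each control. Signals are given below in the order empty vector 1, empty vector 2, RetSat shRNA. Log2 values are of the signal plus 10.2, and signals of different probe sets are not compared as mRNA amounts.

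Ribosomal protein mRNAs were present at high signal on all arrays and differed little between them. Of the 46 genes, 43 passed the filter on dim signal, and 35 of those lay above the 99th percentile of all probe sets. Their median signal was 16244 on empty vector 1, 15495 on empty vector 2 and 16628 on RetSat shRNA. The 100 probe sets together held 5.45%, 5.53% and 5.83% of the signal of the respective arrays. Between the empty-vector arrays the median absolute log2 difference was 0.12 for these genes and 0.41 for all genes tested. A gap of at least 1.5-fold between the controls was seen for 5 of the 43 (11.6%), against 33.6% of all genes tested. Most of the 43 were bright, and other genes as bright were not compared separately for these gaps. The smaller gaps are therefore not shown to be particular to ribosomal protein genes.

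With the deposited scaling, most ribosomal protein genes were slightly higher on RetSat shRNA than on both controls, and with quantile normalization most were not. As deposited, 34 of 43 lay above both empty-vector arrays, compared with 34.4% of all genes tested, and 3 of 43 lay below both, compared with 25.4%. The median log2 difference was 0.17 from the mean of the controls. It was 0.21 when set against empty vector 1 and 0.11 when set against empty vector 2, and the same medians over all genes tested were 0.07, 0.14 and 0.00. 29 of 43 genes followed the order empty vector 1, empty vector 2, RetSat shRNA from low to high, compared with 28% of all genes. The comparisons with the 2 controls share the RetSat shRNA array.

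No ribosomal protein gene passed limma, a moderated linear model fitted over all genes (0 of 43 at an adjusted p of 0.05, against 0% of 10843 genes), and none had an unadjusted p under 0.05, against 0.996% of all genes. With a robust variance prior 7 of all genes passed (0.0646%), none of them ribosomal. The lowest unadjusted p was 0.20 in limma, for Rps27, which is lower on RetSat shRNA. Standard errors of the members ran from 0.500 to 0.622, since the fit has 1 residual degree of freedom and takes its spread from all genes. The controls lay closer together for the members, most of them bright, than for all genes. An exact permutation test over 2 arrays against 1 has 3 assignments and cannot go below p = 0.333 one-sided. None of the 43 lay 2-fold above both controls (0.0922% of all genes did) or 2-fold below both (0.498% did).

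**Figure D1:**
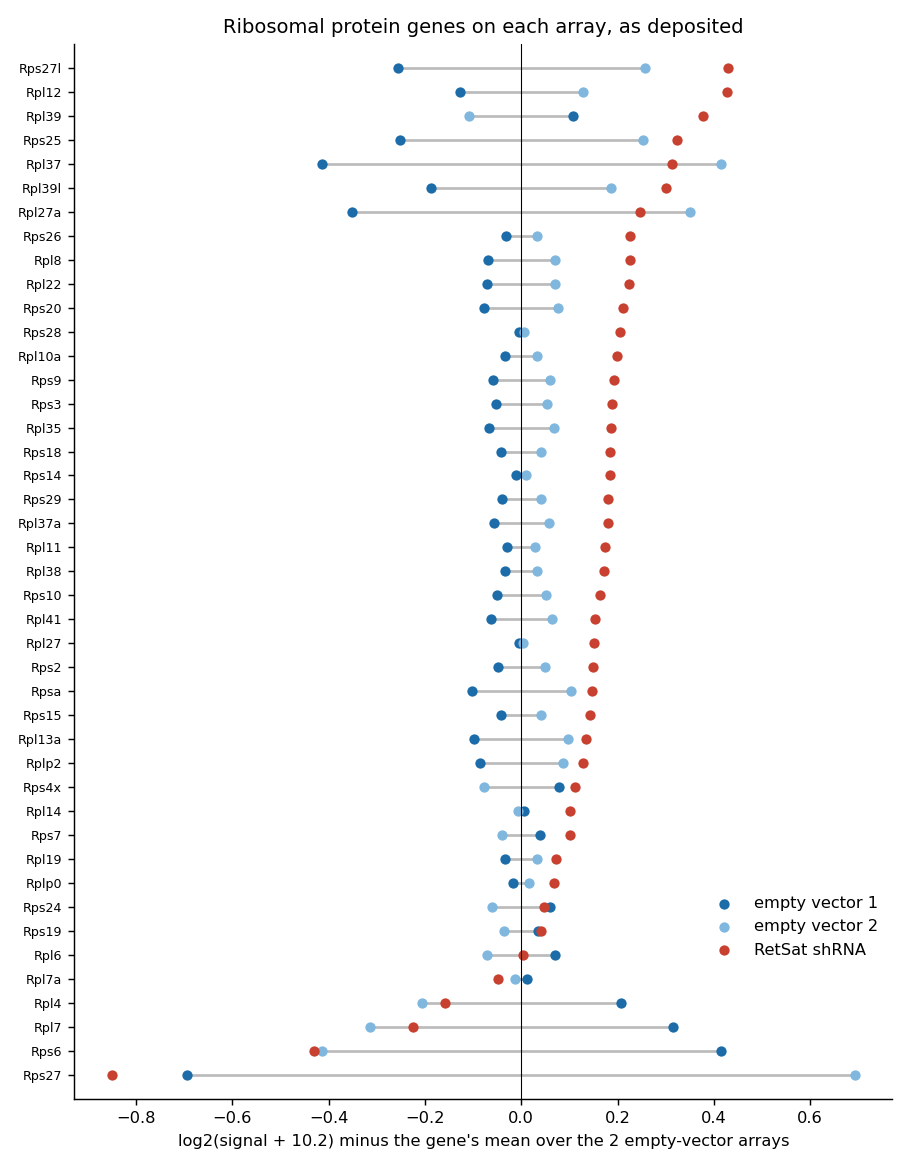
Each row is 1 of the 43 ribosomal protein genes tested, with the log2(signal + 10.2) on each array relative to its mean over the 2 empty-vector arrays, as deposited (dark blue empty vector 1, light blue empty vector 2, red RetSat shRNA; the grey line joins the controls). The red point lies right of both blue points for 34 genes and left of both for 3, whereas after quantile normalization these counts are 18 and 9.

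Genes of high signal in general read higher on RetSat shRNA. The 99th percentile of all deposited signals was 7005 on empty vector 1, 7748 on empty vector 2 and 8207 on RetSat shRNA, while the 2% trimmed mean was 250 on each array. Among genes above the 95th percentile, 31 of 37 ribosomal protein genes lay above both controls, compared with 54.4% of all such genes, and 1 of 37 lay below both, compared with 12.3%. Above the 99th percentile, a filter added after the data were seen, it was 30 of 35 (85.7%) compared with 79.1% of 206 genes, which include these 35, and 1 of 35 lay below both, compared with 3.88%. With quantile normalization, which gives the arrays the same distribution of signal, 18 of 43 lay above both (41.9%) compared with 36.3% of all genes, and 9 lay below both (20.9%) compared with 21.9%. The median difference was then 0.02, with 0.03 against empty vector 1 alone and 0.02 against empty vector 2 alone. Of the 43 genes, 35 lie above the 99th percentile. Quantile normalization makes the brightest signals equal across arrays, so it can also remove a shift that these genes share. With the arrays centred on their medians 37 lay above both, compared with 45.4%, and 1 below both, compared with 18.3%. Centring moved the median of the members to 0.26. At both quantile and deposited scaling, 18 genes were above both controls, and 4 of the 34 moved from above both to below both.

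**Figure D2:**
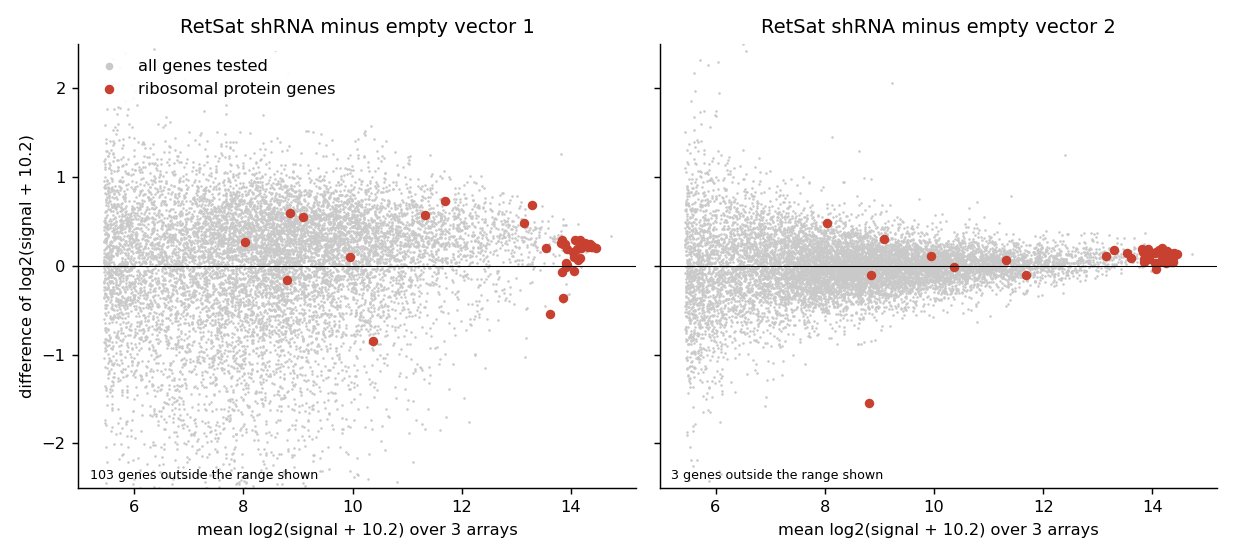
Difference in log2(signal + 10.2) of RetSat shRNA from empty vector 1 (left) and empty vector 2 (right) against mean log2 signal, for all 10843 genes tested (grey) and the 43 ribosomal protein genes (red), as deposited. 35 of the red points sit at the bright end, where the grey points also lie above 0; 103 and 3 genes fall outside the plotted range of 2.5.

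**Figure D3:**
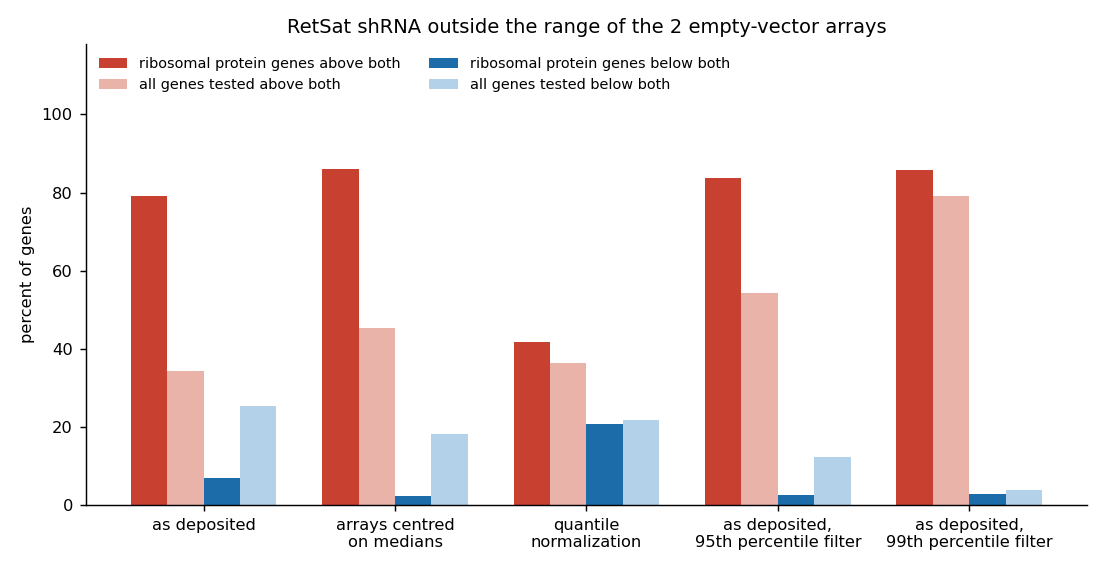
Percent of genes with RetSat shRNA above (red) or below (blue) both empty-vector arrays, for ribosomal protein genes (dark) and all genes tested (pale), under 3 scalings and 2 filters on signal. The dark and pale red bars stand at 79.1% and 34.4% as deposited, at 41.9% and 36.3% after quantile normalization, and at 85.7% and 79.1% above the 99th percentile.

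Small-subunit genes gave 16 of 19 tested above both controls and 2 below, as deposited, and 8 above and 3 below after quantile normalization, against the shares of all genes given above. Their median log2 difference was 0.16 as deposited and 0.02 after quantile normalization. Rps28, a small protein near the mRNA exit channel, read 17613, 17736 and 20382. Its controls were nearly equal, and RetSat shRNA was 1.16 and 1.15 times empty vector 1 and empty vector 2, a log2 difference of 0.21 (SE 0.5, adjusted p = 1 in limma). Rps26, which contacts the mRNA upstream of the start codon, read 13304, 13901 and 15908, with RetSat shRNA the highest and at 117% of the control mean of 13603 ± 422 (SD, n = 2). Rps14, of the subunit's platform, read 16825, 17063 and 19254, at 114% of the control mean. RetSat shRNA lay above both controls under both scalings for Rps26, Rps28 and Rps14, which are among the 18 of 43 members where it did. After quantile normalization 36.3% of all genes lay above both. The quantile-normalized differences from the 2 controls were 0.10 and 0.10 for Rps26, 0.04 and 0.08 for Rps28, and 0.04 and 0.06 for Rps14. Rps3, at the mRNA entry channel, read 14004, 15080.1 and 16566. Rpsa, also known as the laminin receptor, read 18667, 21537 and 22209, with the controls further apart than empty vector 2 and RetSat shRNA. Rps25, which viral internal ribosome entry sites need, read 1990.3, 2829.7 and 2971, where empty vector 1 was low and the other arrays were close. Rps29 and Rps20 of the subunit's head read 20058, 21220.1 and 23387 and 16662, 18542 and 20357. Rps19, a gene mutated in Diamond-Blackfan anaemia, read 15890.4, 15132 and 15942, so that RetSat shRNA exceeded empty vector 1 by less than the gap between the controls. Rps19 lay above both controls as deposited and below both after quantile normalization. Rps4x on the X chromosome read 15849, 14235 and 16227 and Rps7 read 18011, 17059 and 18811. In both of these genes empty vector 2 was the lowest. Rps2 and Rps15, at 17417, 18628 and 19961 and at 14619, 15495 and 16628, lay above both controls as deposited and between the controls after quantile normalization.

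Large-subunit genes gave 14 of 20 tested above both controls, 1 below and 5 between, as deposited. Of all genes tested, 34.4% lay above both and 25.4% below both. After quantile normalization 8 of the 20 lay above and 4 below, near the shares of all genes, 36.3% and 21.9%. The median log2 difference of large-subunit genes was 0.17 as deposited and 0.02 after quantile normalization. Rpl12, which sits at the base of the stalk, had a dim probe set that read 442, 529 and 653, a log2 difference of 0.43 (SE 0.504, adjusted p = 1 in limma). RetSat shRNA was the highest array for Rpl12 under both scalings (0.63 and 0.30 after quantile normalization). Rpl8, close to the peptidyl transferase centre, read 13184, 14522 and 16173, at 117% of the control mean of 13852 ± 946 (SD, n = 2). Rpl10a, on the flexible L1 stalk, read 18363, 19237 and 21566, and Rpl22, which also binds viral RNA, read 15546, 17156 and 19079. Both were highest on RetSat shRNA, and their ratios to the controls were 1.17 and 1.12 for Rpl10a and 1.23 and 1.11 for Rpl22. Rpl38, which shapes the translation of Hox mRNAs in the mouse embryo, read 21081, 22066 and 24308. Rpl27 read 16244, 16330.4 and 18091 on its brightest probe set, with nearly equal controls. Its other 2 probe sets had controls further apart, at 6899, 9973 and 10996, and at 7780, 8871 and 10024. Rpl11, which with Rpl5 and the 5S RNA can bind the p53 inhibitor Mdm2, read 11218, 11684 and 12921, at 113% of the control mean of 11451 ± 329.9 (SD, n = 2). After quantile normalization Rpl11 differed from the controls by 0.00 and 0.03. Rpl13a, Rpl37a, Rpl19 and Rpl14 lay above both controls as deposited. Rpl13a, which can leave the ribosome to silence inflammatory mRNAs, read 17518, 20063 and 20582, and Rpl37a read 18180.0, 19682 and 21428. Rpl19 read 16285, 17062 and 17513 and turned to below both after quantile normalization, and Rpl14, with a dim probe set, read 957, 949 and 1023 and stayed above both. Rpl6 read 15344, 13916 and 14656, with RetSat shRNA between the controls. Rpl7a was the 1 large-subunit gene below both controls, at 17360.1, 17067 and 16635, a log2 difference of -0.05 as deposited and -0.19 after quantile normalization, and of 0.04 with centred arrays, where the sign turned.

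The stalk recruits and activates the translation elongation factors, and 2 of its proteins were measured. Rplp0, the base of the stalk, read 17790.0, 18198 and 18870.4, and Rplp2, one of its acidic partners, read 19538, 22022 and 22668. Both lay above both controls as deposited, at 105% and 109% of the control means. After quantile normalization both lay below both controls, with log2 differences of -0.07 and -0.02, so no direction holds for them.

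In 16 of the 43 ribosomal protein genes (37.2%) the empty-vector arrays lay further apart than RetSat shRNA and the control mean, compared with 71.6% of all genes tested, and the 6 with the widest gaps apart from the paralogs and Rps25 follow. Rpl7, a large-subunit protein, was bright and higher on empty vector 1, at 16392, 10599 and 11283. Its other 2 probe sets read 15240.3, 10041 and 9822, and 5649, 4141 and 3580.1, so all 3 were highest on empty vector 1. Rpl4, which lines the peptide exit tunnel, read 17616, 13227 and 13668, also highest there. Rps6, the small-subunit protein phosphorylated by S6 kinase downstream of mTOR, read 1933, 1084 and 1072. Its probe set lay below both controls, but RetSat shRNA differed from empty vector 2 by -0.02 on the log2 scale and from empty vector 1 by -0.84. In the other direction, Rpl37 read 2294, 4084 and 3806 and Rpl27a read 332, 546 and 508, and both were low on empty vector 1 and between the controls on RetSat shRNA. Rps27, a zinc-binding small-subunit protein, had a single probe set that read 327, 871 and 292, high on empty vector 2 alone. Empty vector 2 was also the highest array for Rpl37 and Rpl27a, 3 of 43 genes in all compared with 31.3% of all genes, but for those RetSat shRNA was close to it. It lay below both controls, with log2 differences of -0.16 against empty vector 1 and -1.54 against empty vector 2, and was the 1 member (2.33%) at least 2-fold apart between the empty-vector arrays, compared with 12.7% of all genes. It was also the 1 member at least 2-fold apart between RetSat shRNA and empty vector 2, compared with 1.73%. Without empty vector 2 the difference of Rps27 was -0.16, against -0.85 with it. Empty vector 1 was the highest array for 6 of the 43 genes and the lowest for 31, compared with 34.2% and 52.6% of all genes.

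Paralogs replace a standard subunit in some tissues. No probe set with exactly 1 symbol was annotated to Rpl3, Rpl5, Rpl10, Rpl10l, Rplp1, Rps27a or Rpl40, which are not analysed here. The rule found 4 paralogs. Rps27l, a paralog of Rps27 and a known p53 target, was close to Rpl12 in its log2 difference as deposited, at 0.43 for each. After quantile normalization its difference was 0.29, under those of Rpl12 (0.47), Rpl39 (0.47) and Rpl27a (0.31). Its brightest probe set read 7588, 10834 and 12222, a ratio of 1.61 and 1.13 to the controls and a log2 difference of 0.43 (SE 0.518, adjusted p = 1 in limma). The other 2 probe sets read 6588, 8797 and 10526, and 5598, 9032 and 9836, so all 3 gave the same order of arrays. Rps27l stayed above both controls after quantile normalization, by 0.48 and 0.09. Most of its difference lay between empty vector 1 and the other arrays, since the controls themselves differed by 0.51. Rpl39l, a paralog of the exit-tunnel protein Rpl39 that is best known from testis, read 7389, 9584 and 10368 on its probe set, and Rpl39 itself read 248, 212 and 302. Both lay above both controls as deposited and after quantile normalization. Rpl39 and Rpl39l are near-identical in sequence, so which mRNA each probe set reads was not tested. Rpl3l, a striated muscle paralog of Rpl3, read 8, 8.7 and 32, and Rps4l read 2.2, 3.2 and 4.7. Neither passed the filter, which sat at a signal of about 33.3. Rps16, a standard subunit, also failed it: its 1 probe set read 0.8, 3 and 1.2.

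Probe sets of the same gene mostly pointed the same way. Of the 100 probe sets, 91 passed the filter on dim signal, 72 lay above both controls and 7 below both, as deposited, compared with 30.6% and 30.1% of the 22492 probe sets of the arrays that passed. After quantile normalization 41 of the 91 lay above both and 17 below both, compared with 33.5% and 25.6%. 20 genes had at least 2 that passed, and in 16 of them every log2 difference had the same sign. The median range within a gene was 0.12. Rps10, of the small-subunit head, had 6 probe sets that passed, and their differences ran from 0.08 to 0.16. Rpl35, at the exit of the tunnel, also had 6, and they ran from -0.30 to 0.24. Its 5 bright probe sets lay above both controls, and the dim one read 48.3, 63.2 and 43.2. Rpl41, a very short basic peptide, had the widest range: its brightest probe set read 19528, 21313 and 22696 and a dimmer one read 497, 819.8 and 1250.4, which is the highest log2 difference among the probe sets that passed, at 0.96. Rps9, which contributes to decoding accuracy, read 13619, 14782 and 16206 on its brightest probe set, 361, 527 and 625 on the second and 356, 463 and 392 on the third, and the third lay between the controls. Rps24 read 15932, 14659 and 15798 on its brightest and 665, 480.5 and 511 on a dim probe set, and the 2 had opposite signs. Rps18 had 3 bright probe sets above both controls, such as 18818, 19937 and 22023, and 3 dim ones at 19.1 to 45.7 with differences on both sides of 0. The end of a probe set's ID states how specific the array maker judged it. Probe sets whose ID ends in _x_at, which can bind related sequences such as ribosomal pseudogenes, lay above both controls in 35 of 39 cases and those with the plain ending _at in 12 of 23. The plain ones were dimmer, so ending and brightness cannot be told apart.

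**Figure D4:**
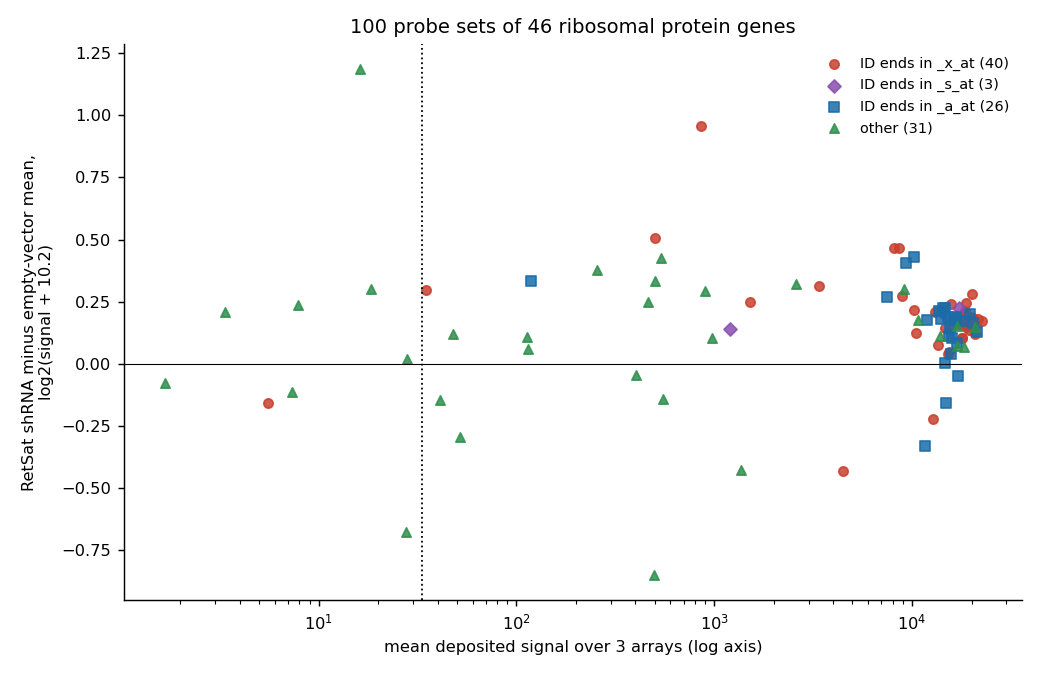
Log2 difference of RetSat shRNA from the empty-vector mean (as deposited) against mean signal on a log axis for the 100 probe sets of the 46 genes, by the ending of the probe set ID; the dotted line is the filter on dim signal at 33.3. Bright probe sets cluster a little above 0, and dimmer ones spread to both sides, from -0.85 to 0.96 among the 91 that passed.

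Genes that build the ribosome, form its mitochondrial counterpart or control its use are described next. Among 98 genes of ribosome assembly, which transcribe and process ribosomal RNA, 17 lay above both controls and 32 below, compared with 34.4% and 25.4% of all genes. Their median difference was -0.48 against the first control and -0.01 against the second, and the controls themselves differed by -0.49 at the median. Nop14, Wdr43 and Heatr1 of the small-subunit processome read 562, 231 and 166, 1175, 498 and 378, and 824, 182 and 139.5, with most of the gap between the empty-vector arrays, and Utp3 read 2012, 1178 and 924. Of 76 mitochondrial ribosomal protein genes, 34 lay above both controls and 9 below, with a median of 0.22 against the first control and 0.03 against the second. Mrpl38 read 695, 705 and 942 and Mrps6 3147, 4274 and 4906, both highest on RetSat shRNA, and Mrps9 read 549.6, 522 and 419 and was the lowest there. Among 52 translation factors and their regulators, 17 lay above and 15 below, with medians of -0.03 and 0.04. After quantile normalization 8 lay above and 19 below, with medians of -0.17 and -0.01. The counts were then 16 and 30 for ribosome assembly and 31 and 10 for the mitochondrial genes. Of all genes, 36.3% lay above both controls and 21.9% below both at that scaling. Eif4ebp1, the inhibitor of cap-dependent initiation that mTOR phosphorylates, read 2948, 4466 and 5559, and Rheb, which activates mTOR, read 3210.4, 4555 and 5479.8. Both were highest on RetSat shRNA, and the initiation factor Eif4g3 (343, 337 and 278) and the release factor Etf1 (1711, 1471 and 1254) lowest. Of 5 further genes listed with the ribosomal proteins, not all of which encode one, 4 lay above both controls. The 5 are Rpl22l1, Rps19bp1, Rsl24d1, Fau and Rpl7l1, and Rsl24d1 is also counted under ribosome assembly. Rpl22l1, the paralog of Rpl22, read 7189, 8966 and 10364, and Fau, whose product carries small-subunit protein S30, read 15610.0, 17076 and 17481. No gene of these lists passed limma (0 genes at an adjusted p of 0.05, with none at an unadjusted p under 0.05). The lists were described and not tested against one another.

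**Figure D5:**
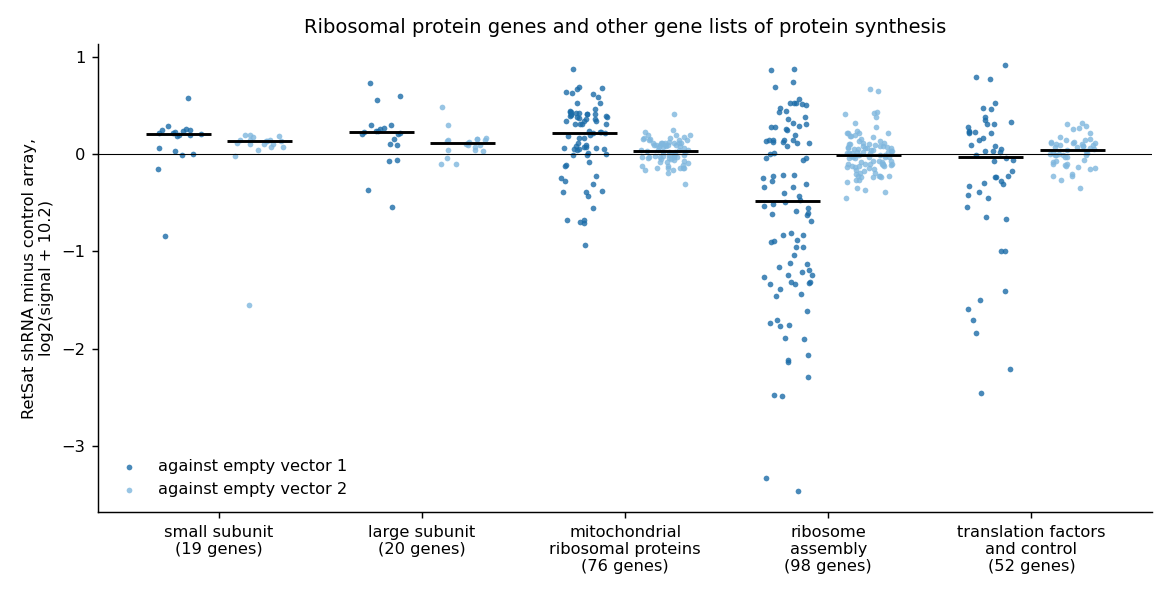
Difference in log2(signal + 10.2), as deposited, of RetSat shRNA from empty vector 1 (dark) and from empty vector 2 (light), with 1 point a gene and black bars at the medians. Medians of the small and large subunit lie at 0.21 and 0.22 against empty vector 1 and at 0.13 and 0.11 against empty vector 2, and that of ribosome assembly at -0.48 and -0.01; after quantile normalization the subunit medians against the control mean are 0.02.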

How the data were processed

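Gene expression was measured on 3 single-colour arrays of 45101 probe sets, 2 of empty-vector and 1 of RetSat shRNA NIH3T3 cells, grouped by sample title. The deposited values are intensities on a linear scale, with a 2% trimmed mean of 250 on each array. How they were scanned and summarised is not stated in the labels. No detection calls were used, and the small number of arrays sets the precision.

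Gene symbols came from the platform annotation. Of the probe sets, 34945 carried exactly 1 symbol and 932 carried several, 9160 were unnamed and 64 were array controls. All 46 member symbols were found unchanged by gene ID in the gene table of GRCm38.p6. For each gene the probe set was used that had the highest mean of log2(signal + 10.2), the offset being the 25th percentile of all deposited intensities. Genes at or above the median of all probe sets were tested (10843). Arrays were not normalized further. limma 3.58.1 (R 4.3.3) was fitted to the 3 arrays together, with two-sided p-values adjusted by Benjamini-Hochberg and called under 0.05. A run on simulated data used less noise than these arrays show, so it does not test the fit at their spread. The model gives the single shRNA array the variance seen between the controls. Fold changes on this scale understate those of dim genes.

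The members and lists were chosen with earlier results of these data known. Members named are those with the largest smaller difference from both controls, with the largest gap between controls, the 4 brightest and dimmest, the best known, paralog pairs and those whose probe sets disagree most. Other members, given so that every one is accounted for, were named after their values were seen. From other lists the top 4 genes by the same smaller difference, or fewer, are named. Alternatives were the offset, scaling, filter, choice of probe set, variance prior and leaving out each control.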

Additional observations from a re-analysis of the deposited data

Results flagged for a closer look

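Probe sets that the comparison did not use also carried ribosomal protein signal. 110 probe sets list several symbols, at least 1 of them a ribosomal protein gene, and are not members because their gene cannot be named. Of these, 106 passed the filter on dim signal, 81 had RetSat shRNA above each control and 4 had it below each, as deposited, compared with 30.6% and 30.1% of all probe sets that passed, with median log2 differences of 0.18 against the first control and 0.11 against the second. After quantile normalization 32 of the 106 were above each control and 20 below each, compared with 33.5% and 25.6%.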

How the results depend on the processing

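No paired analysis was possible because the groups share only 1 replicate number. The offsets of 1 and 32, the filter at the 75th percentile and the median without the paralogs changed no count or median of the members beyond the limits used. With quantile normalization 18 members lay above both controls, 9 below both and the median difference was 0.0194. With the arrays centred on their medians 1 lay below both, the median was 0.26, and limma called 1 of all genes; with a robust prior it called 7. The filters at the 95th and 99th percentiles, which test fewer genes, left 1 below both, and with no filter 1 member, Rpl3l, was at least 2-fold from both. Leaving out 1 control gave 36 to 38 members above the remaining one, 5 to 7 below it, 0 to 1 at least 2-fold from it and medians of 0.11 to 0.21. With empty vector 1 left out, the median was 0.11, and the 1 member past 2-fold was Rps27. Among members above or below both controls as deposited, the sign turned after quantile normalization for Rpl13a (-0.0066), Rpl19 (-0.0588), Rplp0 (-0.0721), Rplp2 (-0.0248), Rps10 (-0.0046), Rps19 (-0.0829), Rps4x (-0.0143) and Rps7 (-0.0375). In the same group it turned with centring for Rpl7a (0.0404), with the mean of all probe sets for Rps4x (-0.0234), and with probe sets not ending in _x_at or _s_at for Rps9 (-0.0476). Of the members between the controls, Rpl6 (-0.1334) and Rps24 (-0.0691) also turned after quantile normalization. With quantile normalization 12 of 43 members moved by less than the spread between the controls. The cause was not tested. Dim members such as Rps16, Rpl3l and Rps4l lie where no detection call separates signal from background.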
